A study of Mus musculus with 16 samples.

Results

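Heavy chain variable segment usage was examined in 4 splenic B-cell subsets. The members were the genes of the deposited RPKM values (read numbers normalised to exon length and to library size) whose symbol begins with Ighv and that were above 0 in at least 1 of 16 libraries. These were 109 of 114 Ighv genes listed, out of 38355 genes in all. Ighv7-2, Ighv1-24, Ighv8-13, Ighv1-62-1 and Ighv16-1 were listed at 0 throughout. The members fell into 15 families, numbered by the digits after Ighv, with 53 in family 1, and the annotation gave 103 as functional and 6 as pseudogenes.

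RNA-Seq libraries were made from transitional 1 (T1), transitional 2 (T2), marginal zone (MZ) and follicular (FO) B-cells of WT and Mir146a-/- (KO) mice, both on the C57BL/6 background, with 2 replicates in each of the 8 groups. Cells were sorted by FACS from pooled spleens, so an animal cannot be told apart within a library, and the age of the sorted mice is not given in the sources used here. T1 cells were gated as CD23- AA4+ and T2 cells as CD23+ AA4+, both with high surface IgM, MZ cells as CD23- AA4- with high IgM and CD21, and FO cells as CD23+ AA4- with low IgM. The labels name no Cre driver or tissue restriction for the deletion. The gene row of the targeted microRNA, Mir146, held 0.583 and 0.656 RPKM in the WT FO libraries and 0 in every other library, so it checks the genotype of FO alone. The gate markers followed the labels, with Fcer2a (CD23) at 604 to 712 RPKM in T2 and 622 to 751 in FO against 30.2 to 56.4 in T1 and 6.74 to 23.2 in MZ. A list of 5 MZ marker genes summed to 1288 to 1599 RPKM in MZ and to at most 302 elsewhere.

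A heavy chain is encoded by 1 V, 1 D and 1 J segment that are joined by recombination during B-cell development, and the V segment supplies most of the antigen-binding domain. Each B-cell and its progeny express the joined segment of their own receptor, so the share of a segment in the mRNA of a sorted population is set by how many cells carry it and by how much heavy chain mRNA each of them holds, which cannot be told apart in bulk libraries. In the mouse spleen, MZ B-cells are known for a receptor repertoire that differs from that of FO B-cells, plasma cells hold far more immunoglobulin mRNA than resting B-cells, and families 11 and 12 are known from B-1 cells.

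The members lay within chr12:113572927-116010093 (GRCm38), the span of all annotated Ighv genes there. All members were on the minus strand, so that the lowest coordinate lies nearest the D segments. Usage was taken as the share of a segment in the summed Ighv RPKM of its library. RPKM is per length, but for 81 of the 109 members the exon length recovered from the deposited values differed from the GENCODE M21 length, and the authors counted uniquely aligned reads only, so a comparison of levels between segments is less certain than one of a segment between libraries. Of the windows of 100 bases, the read length, in the annotated transcripts of a member, a median of 74.5% matched no other Ighv transcript with 2 or fewer mismatches. This was true of every window for 24 members and of no window for 5 members, which together held a mean share of 1.91%. Usage of the latter is uncertain. The authors counted over a UCSC gene model, whose exons are not used here, so these windows describe the GENCODE transcripts only.

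The sequences below are the last 300 bases of the annotated transcripts (GENCODE M21, GRCm38, minus strand, 5′ to 3′) of 4 pairs of related segments on which the results turn. The first 3 pairs hold segments that differed between MZ and FO B-cells, and the fourth pair holds segments that were far higher in 1 T1 library than in the others. Capitals mark the bases that differ from the other segment of the pair or have no partner in the alignment. Ighv10-1 (gene at chr12:114479005-114479451) and Ighv10-3 (chr12:114523441-114523905) were identical at 96.7% of aligned bases, with 10 differences, and 48.1% and 51.4% of their windows were unshared, so the split between them is less certain than their sum.
Ighv10-1: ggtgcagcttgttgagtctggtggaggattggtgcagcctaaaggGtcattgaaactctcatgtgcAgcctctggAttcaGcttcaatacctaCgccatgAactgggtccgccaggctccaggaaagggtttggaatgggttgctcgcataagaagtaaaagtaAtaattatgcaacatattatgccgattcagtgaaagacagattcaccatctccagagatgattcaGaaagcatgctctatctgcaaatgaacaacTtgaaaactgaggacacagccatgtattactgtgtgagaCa
Ighv10-3: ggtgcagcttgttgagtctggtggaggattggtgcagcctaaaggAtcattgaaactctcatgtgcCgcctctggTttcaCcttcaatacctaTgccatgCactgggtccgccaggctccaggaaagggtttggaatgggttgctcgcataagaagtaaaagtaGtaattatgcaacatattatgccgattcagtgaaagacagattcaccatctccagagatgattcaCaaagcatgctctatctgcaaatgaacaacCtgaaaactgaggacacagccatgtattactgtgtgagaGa
Ighv6-3 (chr12:114391712-114392169) and Ighv6-6 (chr12:114434788-114435244) were identical at 93.0% of aligned bases, with 21 differences, and 100% and 96.9% of their windows were unshared.
Ighv6-3: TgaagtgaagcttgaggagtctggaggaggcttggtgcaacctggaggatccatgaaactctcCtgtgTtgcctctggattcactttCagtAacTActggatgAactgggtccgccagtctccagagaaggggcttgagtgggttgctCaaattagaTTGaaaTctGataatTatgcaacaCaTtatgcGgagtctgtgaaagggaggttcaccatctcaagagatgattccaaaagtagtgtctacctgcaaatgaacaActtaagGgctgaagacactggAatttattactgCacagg
Ighv6-6: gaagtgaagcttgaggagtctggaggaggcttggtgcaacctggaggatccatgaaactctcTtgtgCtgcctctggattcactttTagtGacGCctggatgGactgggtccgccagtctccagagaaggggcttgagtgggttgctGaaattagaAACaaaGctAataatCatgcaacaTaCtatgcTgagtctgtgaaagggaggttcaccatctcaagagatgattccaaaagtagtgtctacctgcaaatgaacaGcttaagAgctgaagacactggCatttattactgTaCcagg
Ighv1-53 (chr12:115158403-115158835), which was higher in MZ, and Ighv1-81 (chr12:115920279-115920712), which was lower, differed at 34 of 300 bases, and 59.9% and 96.0% of their windows were unshared.
Ighv1-53: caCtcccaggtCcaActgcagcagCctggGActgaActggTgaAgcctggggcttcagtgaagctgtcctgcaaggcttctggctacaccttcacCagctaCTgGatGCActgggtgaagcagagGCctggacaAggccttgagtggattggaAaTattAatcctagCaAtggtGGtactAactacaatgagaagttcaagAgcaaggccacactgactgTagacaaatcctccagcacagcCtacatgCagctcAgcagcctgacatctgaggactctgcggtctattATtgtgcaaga
Ighv1-81: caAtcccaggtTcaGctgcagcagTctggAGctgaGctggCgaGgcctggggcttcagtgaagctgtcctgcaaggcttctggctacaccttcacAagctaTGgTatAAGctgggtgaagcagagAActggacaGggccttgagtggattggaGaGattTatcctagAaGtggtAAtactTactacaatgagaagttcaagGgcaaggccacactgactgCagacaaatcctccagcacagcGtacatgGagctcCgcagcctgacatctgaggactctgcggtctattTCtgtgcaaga
Ighv14-3 (chr12:114059845-114060321) and Ighv14-4 (chr12:114176438-114176867) were identical at 95.6% of aligned bases, with 13 differences, and 74.3% and 73.9% of their windows were unshared.
Ighv14-3: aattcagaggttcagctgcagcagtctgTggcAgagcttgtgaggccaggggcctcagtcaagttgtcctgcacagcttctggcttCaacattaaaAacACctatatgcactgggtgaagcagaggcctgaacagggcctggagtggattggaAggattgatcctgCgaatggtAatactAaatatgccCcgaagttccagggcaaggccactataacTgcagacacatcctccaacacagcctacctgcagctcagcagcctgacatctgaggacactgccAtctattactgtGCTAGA
Ighv14-4: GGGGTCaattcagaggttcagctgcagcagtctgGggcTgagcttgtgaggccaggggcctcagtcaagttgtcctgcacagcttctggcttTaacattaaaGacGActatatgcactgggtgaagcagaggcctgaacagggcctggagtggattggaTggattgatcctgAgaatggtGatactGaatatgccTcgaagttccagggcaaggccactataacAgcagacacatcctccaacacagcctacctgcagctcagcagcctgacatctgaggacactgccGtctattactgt

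Reads recovered from the RPKM values totalled 9003343 to 26386684 per library, of which 12283 to 159318 were in Ighv segments. The summed Ighv level was far higher in T1 than in the other subsets and was uneven among the T1 libraries. It was 8449 and 27155 RPKM in the WT T1 replicates and 13417 and 32232 in the KO T1 replicates. It was 3753 to 4101 RPKM in T2, 2888 to 3361 in MZ and 2727 to 3149 in FO. The plasma cell gene Igj, which encodes the joining chain of secreted IgM and IgA, was at 428, 2799, 1148 and 3876 RPKM in the same order of T1 libraries, against at most 38.5 RPKM in any other library. The full list of 8 plasma cell markers, Igj among them, summed to 956 to 4649 RPKM in T1 and 359 to 458 in T2. It summed to 664 to 769 in MZ and 331 to 381 in FO. None of the markers was at 0 in all libraries of a subset. They did not all follow Igj. Mzb1 was at 404 to 449 RPKM in MZ and at 123, 354, 146 and 338 in T1. Prdm1 was lower in T1 replicate 1 (2.35 in WT, 2.43 in KO) than in MZ (4.06 to 6.63), but higher in T1 replicate 2. Irf4 overlapped between T1 and MZ, and Sdc1 between T1 and FO. Xbp1, Tnfrsf17 and, narrowly, Tnfrsf13b were higher in every T1 library than in any other. The part of such cells in the T1 values was not tested. The T1 libraries, and replicate 2 of each genotype above all, therefore stood apart, and results that rest on them are given apart.

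**Figure D1:**
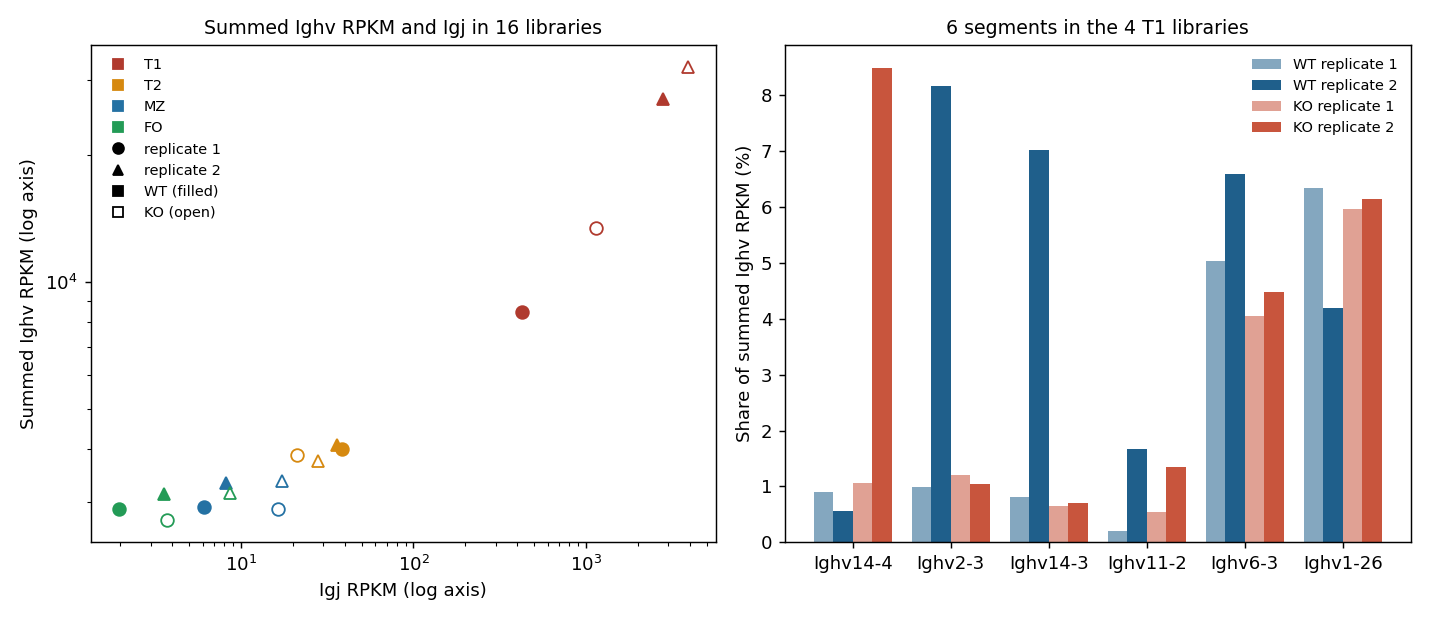
Left, summed Ighv RPKM against Igj RPKM (both log axes) in the 16 libraries, coloured by subset, with filled symbols for WT, open symbols for KO, circles for replicate 1 and triangles for replicate 2. Right, share of summed Ighv RPKM (%) of 6 segments in each T1 library; Ighv14-4 reached 8.48% in KO replicate 2 alone, while Ighv2-3 and Ighv14-3 reached 8.17% and 7.02% in WT replicate 2 alone.

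Family 1, the large J558 family that fills the part of the locus farthest from the D segments, held the most Ighv mRNA in every library and a smaller share in MZ than in FO B-cells. Its share was 45.6% and 50.9% in WT MZ and 44.6% and 50.1% in KO MZ, against 53.3% and 58.6% in WT FO and 52.9% and 58.8% in KO FO. The means were 47.8% ± 3.15 (SD, n = 4) in MZ and 55.9% ± 3.26 in FO, and the libraries of the subsets did not overlap. In T2 B-cells, from which both mature subsets derive, it was 59.5% ± 1.49, and all 4 T2 libraries, at 58.1% to 61.6%, lay above all 4 MZ libraries but overlapped FO. In T1 it was 44.4% ± 6.64, with the lowest value, 36.3%, in WT replicate 2.

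Families 6, 7 and 10 moved the other way and were higher in MZ than in FO without overlap. Family 6 was at 9.41% and 6.86% in WT MZ and 10.7% and 7.51% in KO MZ, against 2.95%, 2.43%, 3.73% and 2.76% in FO in the same order. Family 10, which has 2 members here, was at 9.09%, 6.17%, 8.80% and 6.08% in MZ, against 2.46% to 3.34% in FO and 1.77% to 2.17% in T2. Family 7, known as S107, was at 3.28% to 4.04% in MZ and 1.28% to 1.56% in FO. In T1, family 6 was at 7.73% to 9.70% and family 7 at 2.27% to 4.42%, and both overlapped MZ. As ratios of the means these differences between MZ and FO were 2.90 for family 6, 2.66 for family 10 and 2.59 for family 7. They were of like size in both genotypes, at 5.45 percentage points in WT and 5.85 in KO for family 6, 4.86 and 4.54 for family 10, and 2.40 and 2.1 for family 7.

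Family 8, which lies among the distal family 1 segments, was used more by FO B-cells, at 5.55% to 6.98% in FO against 3.13% to 3.39% in MZ and 3.96% to 4.62% in T2. Family 14 was at 5.77% ± 1.53 in FO and 3.56% ± 0.0242 in MZ, again without overlap. Within FO it split by replicate and not by genotype, with 7.28% and 6.89% in WT and KO replicate 1 and 4.49% and 4.4% in replicate 2. The single family 15 segment, Ighv15-2, was at 0.290% ± 0.058 in FO and 0.0755% ± 0.0202 in MZ.

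Of the families nearest the D segments, family 5 was at 8.28% to 8.83% in MZ and 7.96% to 8.46% in FO, which overlapped. Family 2 was higher in MZ, at 5.46% to 6.66%, than in FO, at 4.34% to 4.90%, a ratio of the means of 1.34. In all, 4 of the 15 families (2, 6, 7 and 10) were higher in MZ than in FO without overlap, 4 (1, 8, 14 and 15) were lower, and 7 overlapped. Of all genes tested, 18.2% were higher and 20.9% lower without overlap after the same scaling to the summed Ighv RPKM, so that a lack of overlap was common between MZ and FO. These shares add up to the whole in each library, so that a rise in one family lowers the others, and no test was made on them.

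**Figure D2:**
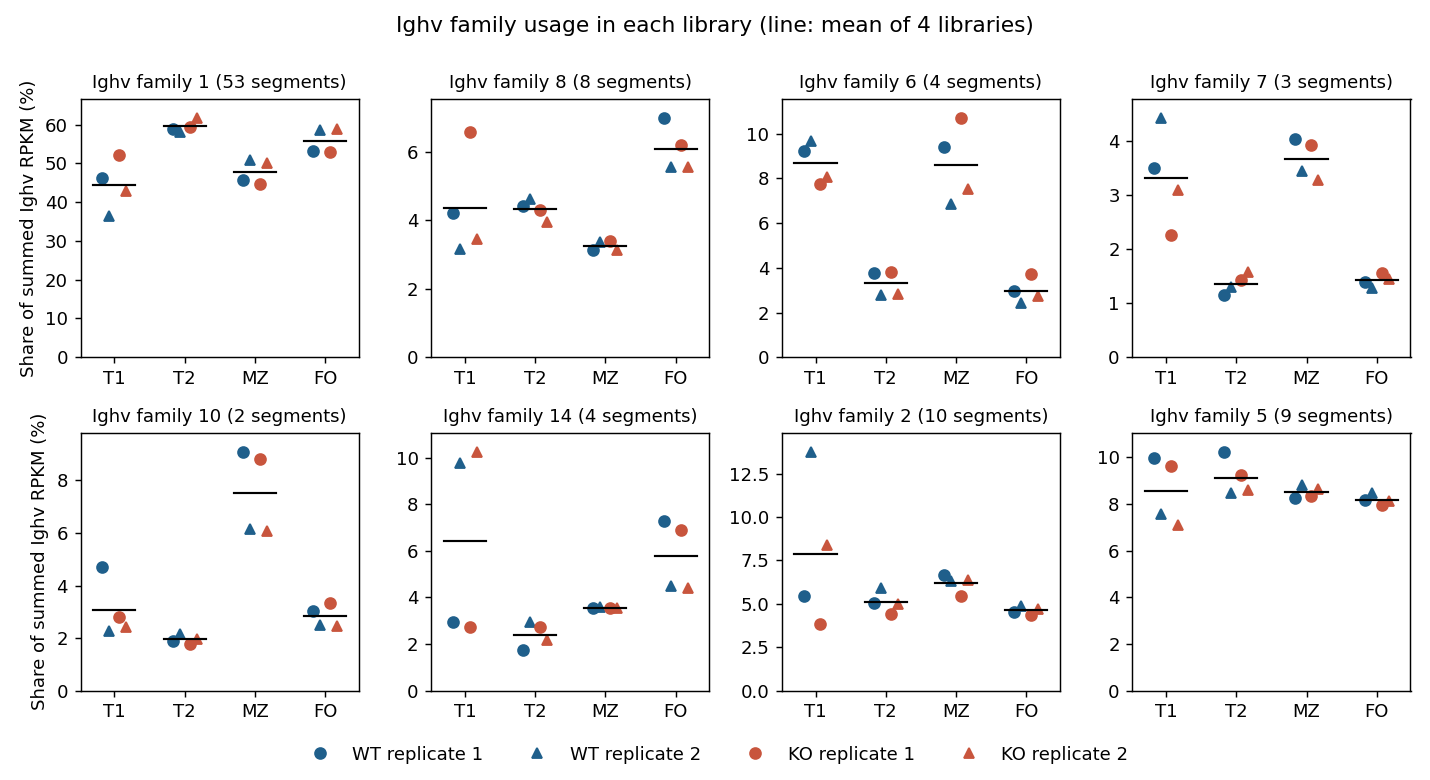
Share of summed Ighv RPKM (%) of 8 Ighv families in each library of T1, T2, MZ and FO B-cells, each axis starting at 0; symbols give genotype and replicate and the line is the mean of 4 libraries. Families 6, 7 and 10 sit higher in MZ than in FO and T2, while T1 overlaps MZ in families 6 and 7. Family 8 has its highest mean in FO, and family 14 in FO separates the replicate 1 libraries (7.28% and 6.89%) from the replicate 2 libraries (4.49% and 4.4%).

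Single segments were then compared. A segment was called where limma, with p-values adjusted over all 12507 genes tested, gave an adjusted p under 0.05 and the log2 difference was larger than 1 in either direction. With both genotypes averaged, 16 of 106 tested members were called between MZ and FO B-cells, 5 higher and 11 lower in MZ, where 9.2% of all tested genes were called (5.79% higher and 3.41% lower). The members' share called higher, 4.72%, was near that background, and their share called lower was 10.4%. Without the fold and p thresholds, 17 members were higher in all 4 MZ than in all 4 FO libraries and 28 were lower, where 25.3% and 21.7% of all genes were. The median log2 difference was -0.22 over the members tested and 0.04 over all genes tested. After each library was scaled to its summed Ighv RPKM, 17 members were called, 15 of them also called without that scaling, where 9.51% of all genes were called. Scaling added Ighv14-4 (lower in MZ) and Ighv2-7 (higher), and Ighv6-6 was no longer called.

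Ighv6-3 was the member that differed most upward. It made up 6.52% and 4.72% of Ighv RPKM in WT MZ and 7.36% and 5.03% in KO MZ, and 1.57%, 1.39%, 1.99% and 1.62% in FO. In RPKM its log2 difference was 1.89 (SE 0.41, adjusted p = 0.00398). It was the most used segment of both MZ replicate 1 libraries, ahead of Ighv1-26, which led in the other MZ libraries and in all T2 and FO libraries. Its relative Ighv6-6 was at 2.1% to 3.27% in MZ and 1.00% to 1.70% in FO, with a log2 difference of 1.11 (SE 0.30, adjusted p = 0.0149) that fell short of the threshold without WT MZ replicate 1 (adjusted p = 0.05) or KO FO replicate 2 (adjusted p = 0.0546). The other 2 family 6 members, Ighv6-4 and Ighv6-5, were at 0.249 to 1.496 RPKM in MZ and 0.128 to 0.861 in FO.

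Ighv10-1 was at 6.4% and 4.18% in WT MZ and 6.28% and 4.20% in KO MZ, and at 1.34% to 1.70% in FO. Its log2 difference in RPKM was 1.84 (SE 0.29, adjusted p = 0.000543). Its neighbour Ighv10-3 was at 1.88% to 2.69% in MZ and 1.12% to 1.65% in FO, and its log2 difference of 0.83 (SE 0.11, adjusted p = 0.000173) missed the fold threshold. Both members of the family were thus higher in MZ, and their groups did not overlap.

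Ighv7-3 was at 3.55% and 3.08% in WT MZ and 3.52% and 2.85% in KO MZ, and at 0.921% to 1.17% in FO, a log2 difference of 1.72 in RPKM (SE 0.42, adjusted p = 0.00782). The other S107 members did not pass. Ighv7-1 was at 7.18 to 10.6 RPKM in MZ and 7.91 to 10.7 in FO, and Ighv7-4 at 3.79 to 5.68 RPKM in MZ and 2.02 to 3.43 in FO (adjusted p = 0.215). Family 7 usage in MZ was therefore carried by 1 of its 3 members. Ighv1-53 was the sole family 1 member called higher, at 3.69% to 4.35% in MZ and 1.51% to 2.08% in FO (log2 difference in RPKM 1.22, SE 0.32, adjusted p = 0.0122). Together the 5 members called higher made up 23.6% and 17.8% of Ighv RPKM in WT MZ and 24.8% and 18.5% in KO MZ, against 6.70% to 8.30% in FO and 7.47% to 8.49% in T2. They were chosen by the MZ and FO libraries, so the gap between those subsets follows from the choice.

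The members called lower in MZ were mostly minor segments of families 1 and 8. The fall of family 1 was not limited to them, since 12 of its 52 members tested had a log2 difference above 0, with a family median of -0.32. Ighv1-5 was at 0.213% and 0.124% in WT MZ and 0.384% and 0.420% in KO MZ, against 1.04% to 1.36% in FO, and its RPKM fell by 2.08 on the log2 scale (SE 0.29, adjusted p = 0.000228). Ighv8-8 was the most used of them, at 0.993% to 1.30% in MZ and 2.61% to 3.43% in FO (log2 difference in RPKM -1.25, SE 0.18, adjusted p = 0.000258). Ighv8-6, Ighv15-2, Ighv9-2 and Ighv1-49 fell by 1.52 to 1.86 on the log2 scale, each from under 13 RPKM. Ighv1-81 was at 0.351% to 0.792% in MZ and 1.32% to 1.78% in FO. Its log2 difference in RPKM of -1.51 (SE 0.48, adjusted p = 0.0282) lost its call without KO FO replicate 2, KO MZ replicate 1, WT FO replicate 1, WT FO replicate 2 or WT MZ replicate 1 (adjusted p = 0.0584 to 0.0993). Ighv1-63 (-1.33, SE 0.42, adjusted p = 0.0289) lost its call without the same 5 libraries (adjusted p = 0.0607 to 0.115), and Ighv1-12 without KO FO replicate 2, KO MZ replicate 1, WT FO replicate 1 or WT MZ replicate 2 (adjusted p = 0.0553 to 0.072). The 11 members called lower summed to 2.80% to 3.26% of Ighv RPKM in MZ and 8.38% to 9.40% in FO, a gap that follows from their choice by the same libraries.

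**Figure D3:**
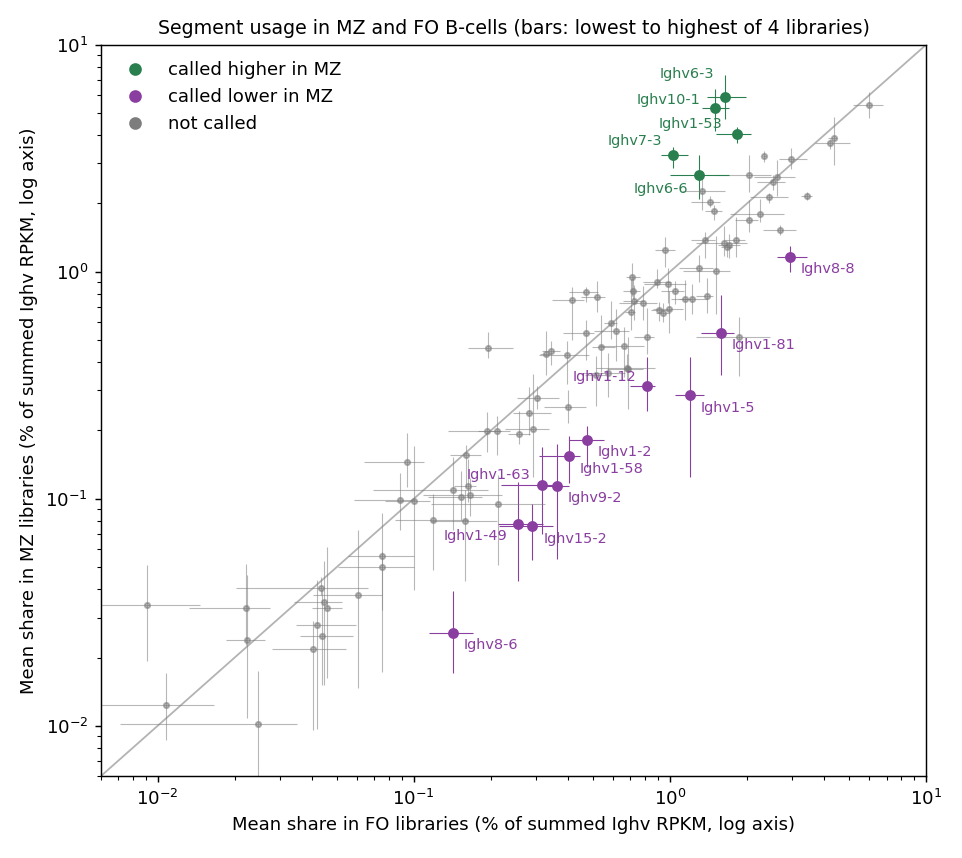
Mean share of each segment in the 4 MZ libraries against its mean share in the 4 FO libraries (% of summed Ighv RPKM, log axes; bars from the lowest to the highest library; the line marks equal shares). The 5 segments called higher in MZ include the 4 with mean shares of 3.25% (Ighv7-3), 4.06% (Ighv1-53), 5.27% (Ighv10-1) and 5.91% (Ighv6-3) in MZ, while the 11 called lower, in purple, run from 0.0257% (Ighv8-6) to 1.16% (Ighv8-8).

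The locus was divided into 4 stretches of equal length, counted from the D segments. Calls in them are to be read against the 9.2% of all tested genes called between MZ and FO. The stretches with only 2 calls did not exceed that share, and the stretches were not tested against each other. Of the members tested, 2 of 31 were called between MZ and FO in the first stretch, 7 of 29 in the second, 5 of 22 in the third and 2 of 24 in the fourth. The second stretch, which holds families 6 and 10, took 38.0% ± 2.83 (SD, n = 4) of Ighv RPKM in MZ and 33.2% ± 1.17 in FO. The fourth, which holds family 1 and 8 segments alone, took 19.1% ± 1.84 in MZ, 23.9% ± 0.846 in FO, 24.6% ± 1.00 in T2 and 16.3% ± 2.32 in T1. In neither stretch did MZ and FO overlap. The first stretch differed less, at 26.8% ± 0.568 in MZ and 25.5% ± 1.06 in FO. Neighbouring segments did not move together throughout: Ighv1-5, which lies between Ighv10-1 and Ighv10-3, was lower in MZ while both of these were higher.

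**Figure D4:**
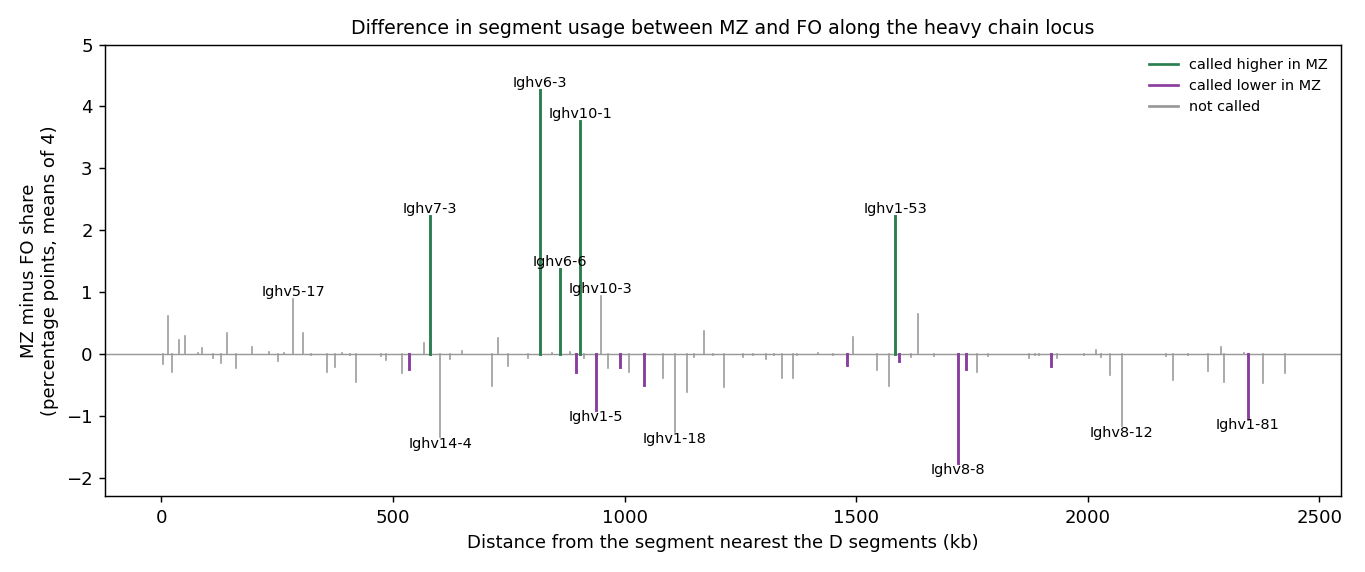
MZ minus FO share (percentage points, means of 4 libraries each) of every segment against its distance from the segment nearest the D segments (kb); green and purple lines are segments called higher and lower in MZ, grey lines were not called. Ighv6-3, Ighv10-1, Ighv7-3 and Ighv1-53 stand highest, and Ighv8-8 and Ighv1-81 are the deepest called falls.

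The T2 to MZ transition showed much of the same difference. It shares the MZ libraries with the comparison above, so the lists are not independent. Of the 106 members tested, 4 were called higher and 19 lower in MZ than in T2, where 10.8% of all genes were called, 6.58% higher and 4.25% lower. Ighv10-1 rose from 37.7, 54.4, 40.4 and 39.8 RPKM in T2 (WT replicates 1 and 2, then KO) to 187, 139, 181 and 141 RPKM in MZ, a log2 difference of 1.90 (SE 0.29, adjusted p = 0.000381). Ighv7-3 (1.43, SE 0.42, adjusted p = 0.0175), Ighv6-3 (1.21, SE 0.41, adjusted p = 0.0333) and Ighv10-3 (1.05, SE 0.11, adjusted p = 2.89e-05) were the other members that rose. Ighv6-3 was at 63.5 to 93.5 RPKM in T2 and 157 to 213 in MZ, without overlap, yet its call was lost when any of 7 of the 8 T2 and MZ libraries was left out (adjusted p up to 0.0977). Ighv7-3 lost its call without WT T2 replicate 1 (adjusted p = 0.0579) or KO T2 replicate 1 (adjusted p = 0.0563), and Ighv10-3 came to a log2 difference of 0.98 to 1.00, just under the threshold, without WT MZ replicate 1, KO MZ replicate 1 or KO T2 replicate 1.

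The largest fall was that of Ighv1-81, from 89.6, 98.1, 65.7 and 81.7 RPKM in T2 to 14.01, 26.4, 10.1 and 17.7 in MZ (log2 difference -2.33, SE 0.48, adjusted p = 0.00255). Ighv1-63 fell by 2.1 (SE 0.42, adjusted p = 0.00227) and Ighv1-5 by 2.1 (SE 0.29, adjusted p = 0.000187). The 11 members called lower in MZ than in FO were all among the 19 called lower in MZ than in T2. Without WT MZ replicate 1 the count of called members fell from 23 to 14. After scaling to the summed Ighv RPKM, which was lower in MZ than in T2, 9 members were called higher and 12 lower, where 12.5% and 2.89% of all genes were. That scaling raises other genes in MZ, so these shares of all genes are no plain background for the members.

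From T2 to FO few members were called, but more lay without overlap. In RPKM, 35 members were lower in all 4 FO than in all 4 T2 libraries, where 13.4% of all genes were. Another 3 were higher, where 13.0% were. After scaling to the summed Ighv RPKM, 10 members were lower and 17 higher, where 1.98% and 52.6% of all genes were. The summed Ighv RPKM was lower in FO (2727 to 3149) than in T2 (3753 to 4101), so that scaling raises other genes in FO. These scaled shares of all genes are therefore no background for the members. By family, 8, 10 and 14 were higher and 5 and 9 lower in FO without overlap. Family 14 had a mean of 2.40% in T2 and 5.77% in FO. Ighv1-76, Ighv1-64 and Ighv1-9 were called lower and Ighv8-4 higher (4 of 106, where 1.14% of all genes were called), and each of these calls was lost when single libraries were left out. Ighv1-64, for example, was at 135 to 172 RPKM in T2 and 63.3 to 88.1 in FO, without overlap (log2 difference -1.04, SE 0.29, adjusted p = 0.0462). No member was called without WT T2 replicate 1, KO T2 replicate 1, WT FO replicate 1 or KO FO replicate 1, 1 was without WT FO replicate 2, and 2 were without KO FO replicate 2. Ighv8-4 was low throughout, at 0 to 0.968 RPKM in T2 and 1.16 to 1.65 in FO. The widest spread of usage was seen in FO. The effective number of segments, the inverse of the summed squared shares, was 45.8 to 48.7 in FO, 40.1 to 43.0 in T2 and 36.3 to 40.9 in MZ, and it took 18 or 19 segments to make up 50% of Ighv RPKM in FO but 14 or 15 in MZ.

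From T1 to T2, 80 of 106 members fell and none rose, where 5.43% of all genes were called, 3.16% lower and 2.27% higher. This followed the summed Ighv level described above, and Ighm and Igkc, the constant regions of the IgM heavy chain and the kappa light chain, fell as well, by 2.16 (SE 0.35) and 1.89 (SE 0.40) on the log2 scale. With both T1 replicate 2 libraries left out, 63 members were called. On shares the T1 test is not used, because scaling to the summed Ighv RPKM moved the median of all genes by 2.02 on the log2 scale and called 87.6% of them. The T1 shares are therefore given as they stand.

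The sum of the segments called higher in MZ than in FO was also high in T1. This did not hold for the most used segments of MZ in general. T1 and MZ shared 6 of their 10 most used segments, T1 and T2 also 6, and T1 and FO 4. Ighv1-82, among the 6 most used in MZ, was at 1.64% to 2.52% in T1, 2.91% to 3.71% in T2 and 2.97% to 4.79% in MZ. The 5 members called higher in MZ than in FO summed to 17.9% and 18.3% of Ighv RPKM in WT T1 and 17.1% and 15.8% in KO T1, closer to MZ than to T2 or FO. Ighv6-3 alone was at 5.04%, 6.59%, 4.06% and 4.49% in T1, against at most 2.41% in T2, and Ighv6-6 was at 3.1% to 4.11%, against at most 1.48% in T2. Ighv1-53, the top segment of KO T1 replicate 1, was at 6.12% there and at 3.58% to 4.07% in the other T1 libraries. Family 10 did not share this: its T1 libraries, at 2.28% to 4.72%, lay below all MZ libraries.

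Other segments stood out in single T1 libraries. Ighv14-4 was at 2735 RPKM, 8.48% of Ighv RPKM and 13152 reads, in KO T1 replicate 2, and at 76.6, 152 and 142 RPKM (0.558% to 1.06%) in the other T1 libraries. Ighv2-3 was at 2219 RPKM in WT T1 replicate 2 and 83.6, 160 and 338 RPKM in the others. Ighv14-3 was at 1906 RPKM in the same WT library and 68.4, 85.9 and 227 RPKM in the others. They ranked first (Ighv14-4 and Ighv2-3) or next (Ighv14-3) in those libraries, so a mean over T1 would rest on 1 library for each of them. In T2, Ighv4-1 was at 2.17% in WT replicate 2 and 0.499% to 0.643% in the other libraries.

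The segments known from B-1 cells showed one such pattern. Ighv11-2 was at 17.6, 453, 72.5 and 436 RPKM in T1 (WT replicates 1 and 2, then KO), and at 1.41 to 8.96 RPKM in all other libraries, so the replicate 2 libraries were high in both genotypes. Its share was 0.208%, 1.67%, 0.541% and 1.35% in T1. The B-1 marker Cd5 was at 1.85, 5.56, 1.56 and 5.19 RPKM in the same libraries and at 1.1 to 2.75 in the others, and Spn (CD43) at 2.54, 11.2, 3.96 and 13.5 against 0.9 to 6.72, but the third gene of the B-1 list, Bhlhe41, was at 26.3, 22.7, 7.25 and 18.8. The list summed to 12.8 to 39.5 RPKM in T1 and 6.71 to 20.4 elsewhere, with none of it at 0. The T cell gene Cd3g, at 0.149, 3.29, 0.418 and 3.24 RPKM in T1, was high in the same replicate 2 libraries, but also in T2 (0.727 to 3.99), where Ighv11-2 was low. The part of such cells in the result was not tested. Ighv12-3 did not follow, at 0.0753% to 0.241% in T1 and 0.154% to 0.305% elsewhere. Ighv11-1 was at most at 3.06 RPKM in any library, and all of its windows were shared with another member.

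Ighv5-2 (VH81X), the functional segment nearest the D segments and one favoured early in B-cell development, was at 0.103% to 0.528% in T1, 0.477% to 0.643% in T2, 0.256% to 0.427% in MZ and 0.465% to 0.563% in FO. MZ lay below T2 and FO without overlap, but no contrast passed the fold threshold (T2 to MZ log2 difference -0.99, SE 0.18, adjusted p = 0.00147).

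No member was called between KO and WT across subsets or in T2, MZ or FO, where 0.072%, 0.048%, 0.064% and 0.032% of all genes were called; 6, 3, 1 and 0 members had an unadjusted p under 0.05 with limma, and limma-voom on the recovered reads called none in these 4 comparisons. In RPKM, no member was higher in both KO libraries than in both WT libraries in every subset, or lower in every subset, where 0.544% and 0.304% of all genes were. The log2 difference between KO and WT ranged from -1.18 to 0.99 over the members in T2, -0.75 to 1.22 in MZ and -0.74 to 0.84 in FO, with a median SE of 0.48. The median SE was also 0.48 in T1, since all groups shared 1 estimate of the spread, to which the uneven T1 libraries contributed. The T2 to MZ change differed between KO and WT for no member at an adjusted p under 0.05, where 0.008% of all genes were called, and 0 members had an unadjusted p under 0.05. The median SE of that difference was 0.68. In T1, 1 member was called, Ighv5-12, where 0.04% of all genes were. It was at 53.3 and 71.7 RPKM in WT and 237 and 368 RPKM in KO (log2 difference 2.25, SE 0.26, adjusted p = 0.0121). The call did not hold without KO T1 replicate 2, and leaving out 1 T1 library gave log2 differences of 1.93 to 2.57. On shares Ighv5-12 was not called (adjusted p = 0.813), but that fit cannot decide the point, since its scaling rests on the uneven summed Ighv level of T1. The summed Ighv level of the T1 libraries differed at the same time, and 26 members had an unadjusted p under 0.05 there. By family, KO libraries lay without overlap above WT for 5 of 15 families and below WT for 3 in T2, above for 3 in MZ, above for 2 and below for 2 in FO, and below for 2 in T1. Of all genes after the same scaling, 24.3% were above and 4.89% below in T2, 10.6% and 8.9% in MZ, 18.4% and 5.26% in FO, and 1.26% and 3.82% in T1. In unscaled RPKM these shares were 12.7% and 9.75% in T2, 17.6% and 11.7% in MZ, 17.0% and 10.2% in FO, and 10.7% and 10.8% in T1. The scaled shares also follow the summed Ighv level of the libraries, so they are no plain background for families. With 2 libraries on each side the family differences were not tested.

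MZ and FO libraries resembled each other by replicate number more than by genotype. The difference in usage between a pair of libraries was taken as the summed absolute difference of the shares divided by 2, which is 0% for equal usage and 100% for none in common. In FO, WT and KO libraries of the same number differed by 3.46% and 5.63%, and the replicates of 1 genotype by 9.10% and 10.05%. In MZ these values were 5.26% and 6.37% against 9.93% and 10.99%. In T2 the values overlapped, with 7.48% and 9.23% against 8.35% and 10.9%. In T1 they were 17.4% and 27.9% against 22.6% and 25.4%, with no order by number or genotype. Across subsets, T2 and FO libraries differed by 10.6% to 18.9% and MZ and FO libraries by 16.6% to 25.3%, while T1 libraries differed from each other by 17.4% to 30.5%.

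**Figure D5:**
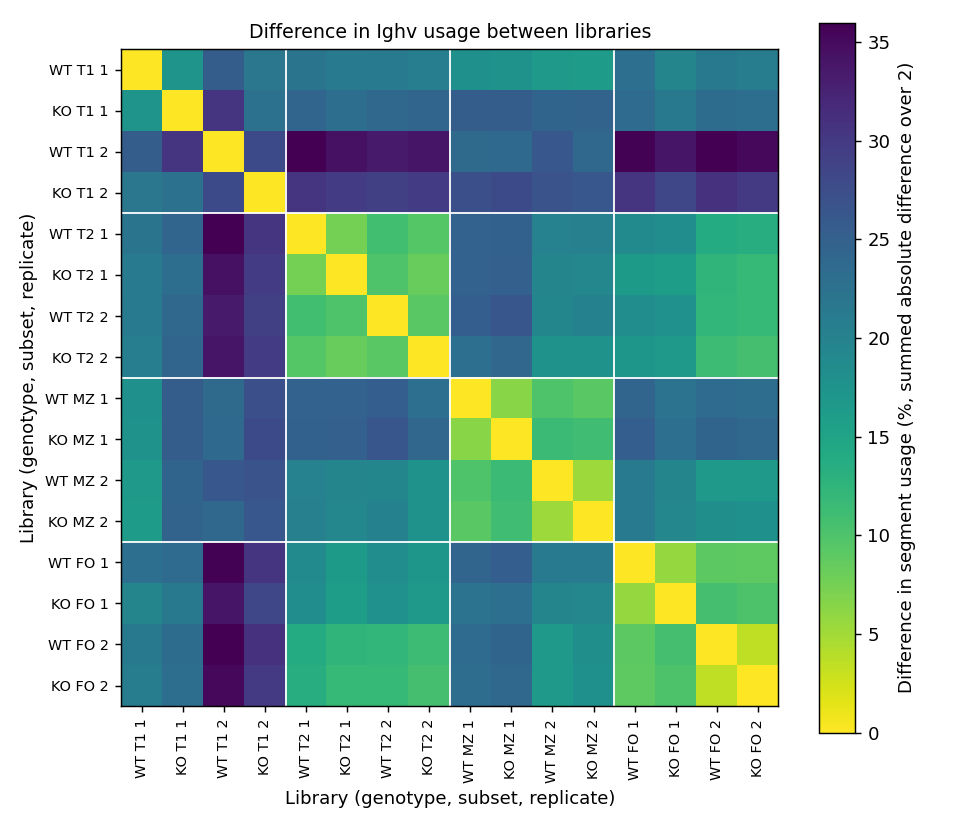
Difference in Ighv segment usage (%, summed absolute difference of shares over 2) between every pair of the 16 libraries, ordered by subset and replicate number, with white lines between subsets. WT and KO libraries of the same number are the closest pairs in MZ and FO (3.46% to 6.37%), and the T1 libraries differ from each other by 17.4% to 30.5%.

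Of 15 tested octamer-binding and other factors known to act on the locus, none was called between MZ and FO, and 1, Runx3, was called higher in MZ than in T2. Of 5 tested partners of the receptor (Ighm, Igkc, Iglc2, Cd79a and Cd79b), none was called in either comparison. Of 5 tested switched constant regions, 1 was called in these comparisons, Ighg3, at 28.0 to 39.5 RPKM in MZ, 4.51 to 14.5 in FO and 5.45 to 22.3 in T2 (MZ against FO log2 difference 2.09, SE 0.40, adjusted p = 0.00181). Of 2 tested genes of recombination and surrogate light chain, Vpreb3 fell in MZ, against FO and T2, by 2.55 (SE 0.21) and 3.37 (SE 0.21) on the log2 scale, and Rag1, part of the recombinase, fell by 2.61 (SE 0.24) from T1 to T2.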

How the data were processed

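RNA was measured in 16 libraries of sorted splenic B-cells (single-end reads of 100 bases). The authors removed low-quality reads and adapters, aligned the rest to mm10 (GRCm38) with TopHat, kept unique alignments and deposited RPKM values per gene, with replicates kept apart. The submitters' processing notes also name DESeq and edgeR. Their versions, for all of these tools, are not given here in the sources used.

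Whole reads were recovered from the steps of the low RPKM values, to within 0.01 of a whole number for each of the 23194 genes that had a value above 0. Members were matched to GENCODE M21 by identifier (101) or symbol (8), and 106 were tested, among the 12507 genes whose mean exceeded 1 RPKM in any group. The test was limma 3.58.1 (R 4.3.3) on log2 of the RPKM plus 0.5, in 1 linear model of the 8 groups with a variance trend and Benjamini-Hochberg adjustment over all genes tested. Fold changes on that scale understate changes of low genes. Usage was tested in the same way after scaling each library to its summed Ighv RPKM. Scripts used Python 3.11.15, numpy 2.4.6 and pandas 2.3.3 and were tested on simulated data. The members, gene lists and named segments (the 6 most used of each subset, the 6 largest called rises and falls of each comparison between subsets, all called between genotypes, segments with over 2% in 1 library and at least 3 times the next, and list members) were chosen with earlier results of these data known. Samples were grouped by their labels, which do not say whether replicates of different groups share mice; p-values measure the spread between these libraries. Alternatives were other pseudocounts, filters, scalings, tests and sample sets.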

Additional observations from a re-analysis of the deposited data

Results flagged for a closer look

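Among the shares of families and named segments, each looked at in the 4 libraries of a subset (208 sets), 9 had a library far from the other 3. Chance flags about 1 in 20 of sets that were not picked beforehand. The count of 9 cannot be set against that rate, because some segments were named for a high share in 1 library. Ighv4-1 and Ighv12-3 were also counted again as families 4 and 12. In T1, Ighv2-3 stood at 8.17% in WT replicate 2 against 0.989% to 1.2%, Ighv14-3 at 7.02% in the same library against 0.641% to 0.809%, and Ighv14-4 at 8.48% in KO replicate 2 against 0.558% to 1.06%. In T2, WT replicate 2 stood apart for Ighv2-3, at 1.86% against 0.606% to 0.731%, and for Ighv4-1, which is family 4 whole, at 2.17% against 0.499% to 0.643%. Ighv2-3 was thus high in replicate 2 of WT in both T1 and T2. WT T2 replicate 1 stood apart for Ighv3-5, at 0.176% against 0.0778% to 0.0824%. In MZ, KO replicate 1 stood apart for Ighv12-3, the single member of family 12, at 0.243% against 0.173% to 0.180%.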

How the results depend on the processing

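The family differences between MZ and FO kept their direction and size under every alternative run, and leaving out 1 library moved family 1 between -9.11 and -7.02 percentage points, family 6 between 4.96 and 6.24, family 7 between 2.13 and 2.38 and family 10 between 4.18 and 5.18. Counts of called segments moved more. For MZ against FO the 16 segments became 8 with KO libraries alone, 9 with WT libraries alone and 25 with no fold criterion, and on shares the 17 became 7 with KO and 5 with WT libraries alone, with fewer libraries in each fit. The 80 from T1 to T2 became 50 and 34 with KO and WT libraries alone and 34 after scaling to the summed Ighv RPKM, and the 34 on shares became 22 with WT libraries alone. The 23 from T2 to MZ became 14 with KO libraries alone, and the 21 on shares became 10 and 8 with KO and WT libraries alone. The 4 from T2 to FO became 0 with KO or WT libraries alone and with no filter on low values, 2 with a pseudocount of 1 or with limma-voom, 8 with only the groups compared, and 9 with the T1 libraries left out, where the 3 on shares became 7. The fits on shares in 1 genotype and those without T1 were chosen after seeing the data. For KO against WT in T1 the single call became 2 with limma-voom and 0 with only the groups compared or after scaling. The cause of these changes was not tested beyond the number of libraries.

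Leaving out 1 library gave 12 to 19 calls for MZ against FO, 68 to 87 from T1 to T2, 14 to 26 from T2 to MZ, 0 to 3 from T2 to FO, 0 to 1 for KO against WT across subsets and 2 to 5 in T1, and on shares 10 to 13, 26 to 43, 9 to 15 and 1 to 2 for the subset comparisons and 0 to 14 for KO against WT in T1. From T1 to T2, scaling to the summed Ighv RPKM reversed the log2 difference of Ighv1-26 to 0.32, Ighv3-6 to 0.037, Ighv9-3 to 0.71, Ighv1-64 to 0.90, Ighv1-9 to 0.92, Ighv1-82 to 0.71, Ighv1-18 to 0.29, Ighv8-8 to 0.11, Ighv1-5 to 0.27, Ighv9-2 to 0.19, Ighv1-12 to 0.45, Ighv11-1 to 0.22 and Ighv12-3 to 0.70, since it takes out the higher summed level in T1.

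Replicate numbers are shared by all groups. Over 12507 genes, the deviations of same-numbered WT and KO libraries correlated at 0.30 in T1, 0.16 in T2, -0.16 in FO and -0.23 in MZ. For this reason the numbers were not taken to pair WT with KO. Over the 109 Ighv members alone, the same correlations were 0.39 in T1, -0.070 in T2, 0.39 in FO and 0.22 in MZ. Between subsets of 1 genotype, the 12 correlations over the 12507 genes were all above 0 (0.076 to 0.45) and 10 were above 0.1. MZ and FO were at 0.45 in WT and 0.34 in KO. Over the Ighv members 8 of the 12 were above 0 and 5 above 0.1. The labels do not say what the numbers share. With the replicate number as a block, taken over both genotypes or within each, 16 segments were called between MZ and FO, 81 from T1 to T2, 23 from T2 to MZ and 5 from T2 to FO. With the block over both genotypes, 1 was called for KO against WT in T1, and 19, 34, 22 and 3 on shares in the subset comparisons. The calls of the named segments were the same with and without the block. Libraries of 9003343 to 26386684 reads gave 12283 to 159318 Ighv reads, so the 21 of 109 segments with a mean share under 0.1% rest on few reads.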
